A study of Homo sapiens with 6 samples.

Results

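The granins are acidic secretory proteins that neurons and endocrine cells store in dense-core granules, where they are cut into peptides. The genes described here are VGF, the granins CHGA, CHGB, SCG2 and SCG3, the prohormone convertases PCSK1 and PCSK2, their partners PCSK1N and SCG5, and REST, a repressor of neuronal and neuroendocrine genes. They were chosen by gene symbol in the table of counts, and all 10 were found among its 58051 genes. VGF had been noticed beforehand as one of the larger rises in the comparison reported here, and the others were added by family and function. The members' values in that comparison are therefore a description. No p-value is printed for a member and nothing is read from the 1 count of members past the threshold.

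Messenger RNA was measured by poly(A)-selected sequencing in HEK293T, a human embryonic kidney line expressing large T antigen from SV40. The 3 control libraries came from cells transfected transiently with the empty plasmid pcDNA3.1-, and the 3 ppk1 libraries from cells transfected with pcDNA3.1-ppk1, which carries the gene of a bacterial polyphosphate kinase. Both groups were harvested 48 hours after transfection, and a control and a ppk1 library of the same letter (B, C or D) are matched biological replicates. The vector's viral promoter drives the gene in whichever cells took up the plasmid, the share of cells that did is not given in the sources used here, and the level of ppk1 itself was not analysed here. The series' title poses the question of how human cells respond to long-chain polyphosphate made inside them.

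Granin precursors are packed into granules in the trans-Golgi network and cut at pairs of basic residues by PCSK1 and PCSK2. The proSAAS protein, made from PCSK1N, inhibits PCSK1, and 7B2, made from SCG5, is needed for PCSK2 to mature. The VGF promoter holds a cyclic AMP response element (CRE), a site bound by CREB family factors. REST binds the RE1 element and keeps many neuronal and granin genes low outside the nervous system.

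The stretches below show the CRE letters, which 3 of the members with a promoter in the table hold: VGF, CHGA and PCSK1. They were read from RefSeq promoters of the GRCh38.p14 build, whose windows of 300 bases run from 250 before a start site to 50 after it, and 8 of the 10 members matched, with 11 start sites. CHGB and SCG2 are named only. Capitals mark TGACGTCA (the CRE) and TATAA (the TATA box core) on either strand. The stretches end at the base before the start site. They lie at chr7:101165570-101165819 on the minus strand (VGF), chr14:92923050-92923149 on the plus strand (CHGA) and chr5:96433249-96433348 on the minus strand (PCSK1).
VGF: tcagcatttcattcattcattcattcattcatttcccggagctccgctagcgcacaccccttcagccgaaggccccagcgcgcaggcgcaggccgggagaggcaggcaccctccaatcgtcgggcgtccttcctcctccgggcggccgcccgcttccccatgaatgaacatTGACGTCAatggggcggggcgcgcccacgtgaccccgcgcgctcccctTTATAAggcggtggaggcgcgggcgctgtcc
CHGA: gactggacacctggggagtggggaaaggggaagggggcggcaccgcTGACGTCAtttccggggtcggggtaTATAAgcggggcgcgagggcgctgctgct
PCSK1: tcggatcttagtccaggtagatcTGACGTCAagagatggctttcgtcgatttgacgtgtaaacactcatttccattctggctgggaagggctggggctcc

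The CRE began 79 bases before the start site in VGF, 54 in CHGA and 77 at one of the 2 start sites of PCSK1. Of all 27305 genes with a promoter in the table, 2.25% held TGACGTCA, and TATAA was held by 24.2%. Both strands were searched, and the CRE overlapped no other motif searched. The letters GCGNGGGCG, the site of EGR factors, were held by VGF, CHGA, PCSK2 and REST among the members and by 11.2% of all genes. In VGF they began 15 bases before the start site.

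VGF and SCG3 also held both parts of the RE1 element, the site of REST, at their start sites. The VGF match (chr7:101165559-101165577, printed from the plus strand of the chromosome, opposite to the gene) began 8 bases before the start site and overlapped the EGR letters. The SCG3 match (chr15:51681511-51681535, plus strand) has the same parts with 9 bases of any kind between them, against 3 in VGF, and lay just after the start site. Each spacing was found in 3 of the 35116 windows of all genes. The letters and spacings were chosen with these sequences in view, so nothing is read from how rare they are. Both strands were searched, and capitals mark the parts that had to match.
VGF: TTCAGCACgctGGACAGCG
SCG3: TTCAGCACccacagggcGGACAGCG

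VGF transcripts were higher with ppk1 in every pair. VGF (ENSG00000128564, chromosome 7), which encodes the granin-like precursor of several secreted peptides, had 3.86, 3.27 and 2.72 CPM (counts relative to the library total, after TMM scaling) in the empty vector libraries B, C and D. It had 6.75, 5.13 and 6.92 CPM in the ppk1 libraries. The lowest ppk1 value lay above the highest control value, so the groups did not overlap. The same was true, in the same direction, of 13.0% of the 19574 genes tested, so nothing is read from it.

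The mean of VGF was 3.28 ± 0.57 CPM with empty vector and 6.27 ± 0.99 CPM with ppk1 (SD, n = 3 libraries per group). Its fitted log2 fold change was 0.92 (SE 0.13), a 1.89-fold difference. The pairs differed in size. The ratio of ppk1 to control was 1.75 in pair B (95% exact binomial interval 1.48 to 2.07), 1.57 in C (1.27 to 1.94) and 2.55 in D (2.04 to 3.20). These intervals cover counting error only, and those of pairs C and D do not overlap. Pair D had both the lowest control value and the highest ppk1 value.

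**Figure D1:**
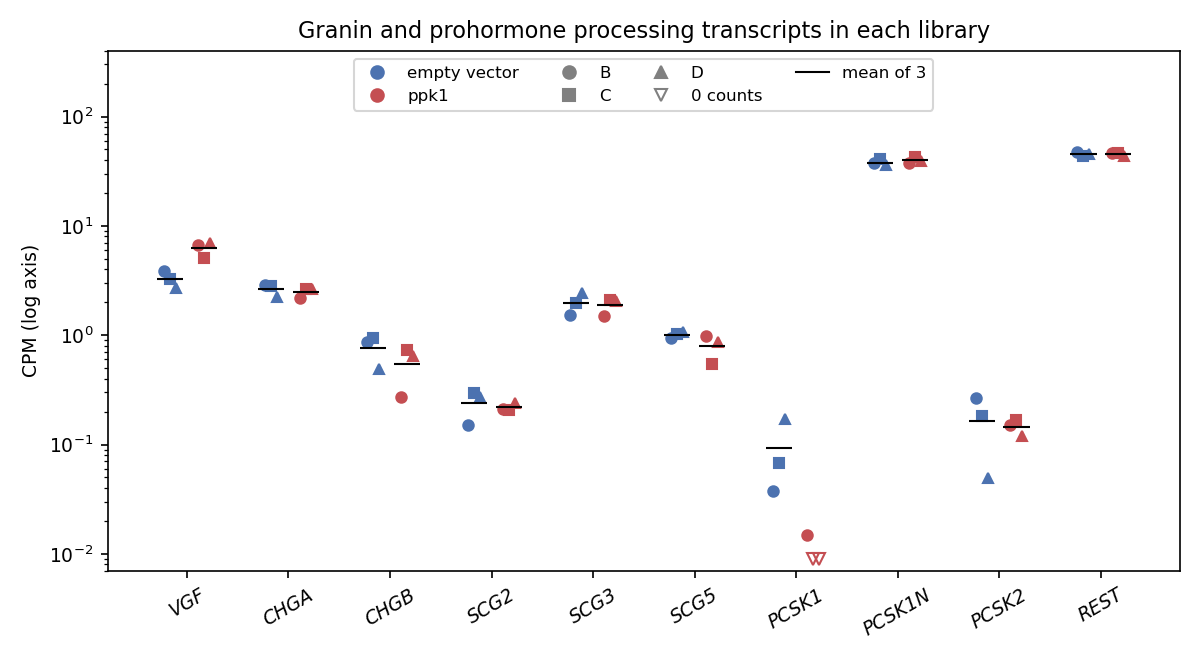
CPM of each of the 10 genes in each library on a log axis, with circles, squares and triangles for replicates B, C and D and a black line at the mean of 3. VGF is separated between the groups, at 2.72 to 3.86 CPM with empty vector and 5.13 to 6.92 with ppk1. PCSK1 lies at the bottom with 0 counts in 2 ppk1 libraries, shown as open triangles, and its mean line there is off the axis.

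Of the 10 genes, 8 passed the filter on low counts and were tested in the fit across all genes. VGF was the only one of the 8 with an adjusted p below 0.05, against 9.08% of all tested genes (4.04% higher and 5.04% lower with ppk1, and 2.4% in either direction in a fit without the replicate letter), and nothing is read from this count because the comparison itself drew attention to VGF. The median log2 fold change of the 8 was -0.07, against 0.01 over all tested genes. Among the other 7 the sizes ran from 0.01 (REST) to 0.58 (CHGB). Whether VGF's change differs from theirs was not tested.

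CHGA (ENSG00000100604, chromosome 14), the precursor of vasostatin and other peptides and the standard marker of neuroendocrine cells, had 2.88, 2.82 and 2.25 CPM in empty vector libraries B, C and D. It had 2.17, 2.67 and 2.63 CPM with ppk1, so the groups overlapped. Its log2 fold change was -0.11 (SE 0.15), and the ppk1 to control ratio was 0.754 in pair B (95% exact interval 0.596 to 0.953) and 1.17 in D (0.878 to 1.56). CHGA was lower with ppk1 in pairs B and C and higher in D.

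CHGB (ENSG00000089199, chromosome 20) encodes secretogranin I and had the lowest fitted value of the 8. Its counts were 46, 42 and 20 with empty vector and 18, 35 and 27 with ppk1 (B, C, D), or 0.871, 0.948 and 0.490 against 0.269, 0.730 and 0.646 CPM. The log2 fold change was -0.58 (SE 0.28), and it rested on pair B. The ratio was 0.309 there (95% exact interval 0.169 to 0.544), 0.770 in C (0.477 to 1.24) and 1.32 in D (0.713 to 2.48). Without replicate B the log2 fold change was -0.06, and without D it was -0.98.

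SCG3 (ENSG00000104112, chromosome 15), which helps sort granins to the granule membrane, had 1.52, 1.99 and 2.42 CPM with empty vector. It had 1.51, 2.11 and 2.03 CPM with ppk1. The log2 fold change of -0.06 (SE 0.16) was smaller than its error, and the libraries of the 2 groups lay over the same range. SCG2 (ENSG00000171951, chromosome 2), the precursor of secretoneurin, had 8, 13 and 11 counts with empty vector and 14, 10 and 10 with ppk1. At this depth its log2 fold change of -0.07 had an SE of 0.39, so a change as large as VGF's could not be measured well in either direction.

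**Figure D2:**
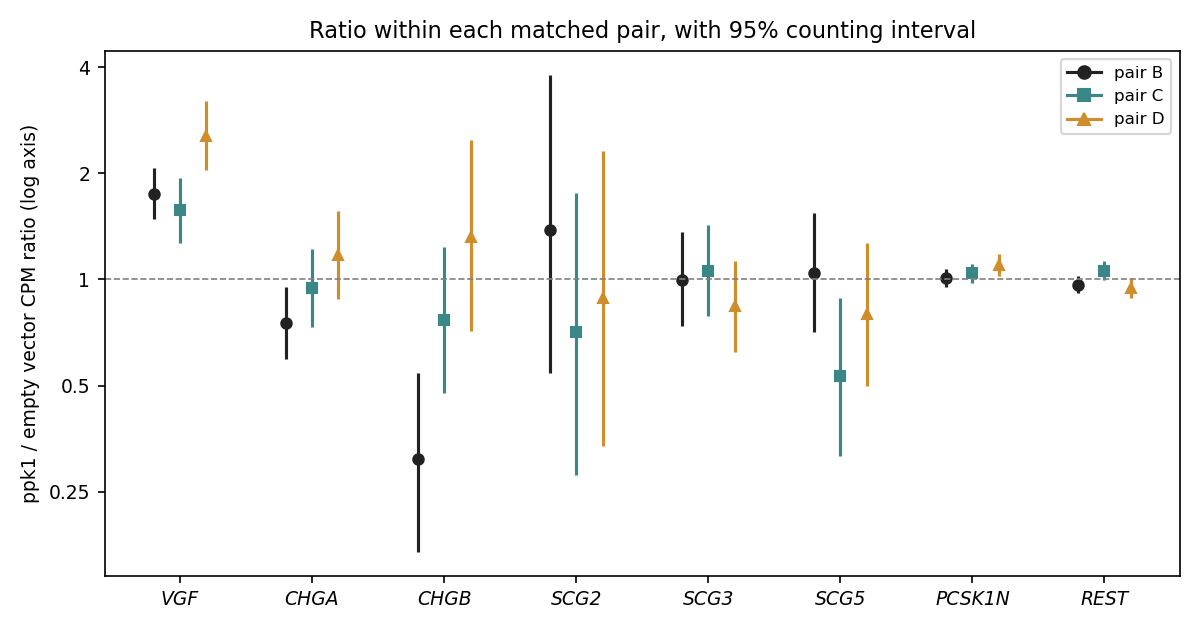
Ratio of ppk1 to empty vector CPM within each matched pair for the 8 tested genes, on a log axis, with 95% exact binomial intervals as vertical lines. The 3 VGF intervals lie above 1 (lowest bound 1.27), while CHGB runs from 0.309 in pair B to 1.32 in pair D.

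The convertases themselves were close to the detection limit. PCSK1 (ENSG00000175426, chromosome 5) had 2, 3 and 7 counts with empty vector and 1, 0 and 0 with ppk1, and PCSK2 (ENSG00000125851, chromosome 20) had 14, 8 and 2 against 10, 8 and 5. A count of 0 allows up to 3 counts, which correspond to between 0.0449 and 0.0734 CPM across the libraries. Neither gene passed the filter. Summed over the libraries, PCSK1 had 12 counts against 1, a ppk1 to control ratio of 0.0735 (95% exact interval 0.00172 to 0.496), with 7 of the 12 in 1 library. PCSK2 had 24 against 23, a ratio of 0.845 (0.456 to 1.56). Both intervals pool the pairs and cover counting error only. Within pairs the PCSK1 interval was 0.0067 to 7.59 in B, 0.0 to 2.24 in C and 0.0 to 0.678 in D.

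Their partners were measured better. PCSK1N (ENSG00000102109, chromosome X), the precursor of the PCSK1 inhibitor proSAAS, had 37.3, 40.5 and 35.7 CPM with empty vector and 37.6, 42.3 and 39.1 with ppk1. Its log2 fold change was 0.07 (SE 0.07), and the groups overlapped. SCG5 (ENSG00000166922, chromosome 15), the precursor of the PCSK2 chaperone 7B2, had 0.947, 1.02 and 1.08 CPM against 0.988, 0.542 and 0.862. Its log2 fold change of -0.33 (SE 0.22) came mostly from pair C, where the ratio was 0.534 (95% exact interval 0.316 to 0.885). An exon of SCG5 overlaps AC123768.1 on the other strand, and an exon of REST overlaps NOA1. Whether the counting used the strand is not given in the sources used here.

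REST (ENSG00000084093, chromosome 4) was the most even of the 10 genes. Its 3 control libraries had 47.6, 43.5 and 45.8 CPM and its ppk1 libraries 46.0, 46.3 and 43.3. The means were 45.6 ± 2.03 and 45.2 ± 1.65 CPM (SD, n = 3 per group), and the log2 fold change was -0.01 (SE 0.08). With 1809 to 3074 counts per library the pair ratios were 0.967, 1.06 and 0.946, and each 95% exact interval lay between 0.886 and 1.13. REST transcripts were thus measured at nearly the same level beside a VGF level that was 1.89-fold higher. Protein and occupancy of the RE1 letters were not measured.

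Levels of different genes were compared per length, as TPM, which divides counts by union exon length and scales each library to the same total. With empty vector the order was PCSK1N (108 ± 9.76 TPM), REST (22.3 ± 1.34), VGF (4.76 ± 0.98), CHGA (3.34 ± 0.54), SCG3 (2.31 ± 0.46), SCG5 (1.80 ± 0.06), CHGB (0.67 ± 0.23), SCG2 (0.34 ± 0.11), PCSK2 (0.092 ± 0.062) and PCSK1 (0.067 ± 0.048; SD, n = 3). The library ranges of CHGA and SCG3, of SCG3 and SCG5, of CHGB and SCG2 and of PCSK2 and PCSK1 overlapped, so these neighbours cannot be ordered. The inhibitor precursor PCSK1N exceeded 92.6% of protein-coding genes. Both convertases lay below all the other members.

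The order of the means was the same with ppk1, where VGF had 8.32 ± 1.56 TPM. In that group VGF exceeded 50.9% of protein-coding genes, against 44.4% with empty vector. CHGA stood at 41.8% in both groups. The neighbours whose ranges overlapped with ppk1 were CHGB and SCG2.

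VGF made up more of the granin transcripts per length with ppk1. It held 46.7%, 39.9% and 37.6% of the summed TPM of VGF, CHGA, CHGB, SCG2 and SCG3 in empty vector libraries B, C and D. It held 65.9%, 52.3% and 60.2% in the ppk1 libraries. The sum ran from 10.0 to 12.3 TPM with empty vector and from 12.5 to 15.3 with ppk1. Without VGF it ran from 6.24 to 7.22 TPM and from 4.78 to 6.09 TPM, so the larger sum with ppk1 came from VGF. TPM had no TMM scaling, and REST averaged 22.3 and 20.2 TPM (control and ppk1) but 45.6 and 45.2 CPM. The lower sums without VGF are therefore not read as a fall. In TMM-scaled CPM the groups overlapped for each of CHGA, CHGB, SCG2 and SCG3.

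**Figure D3:**
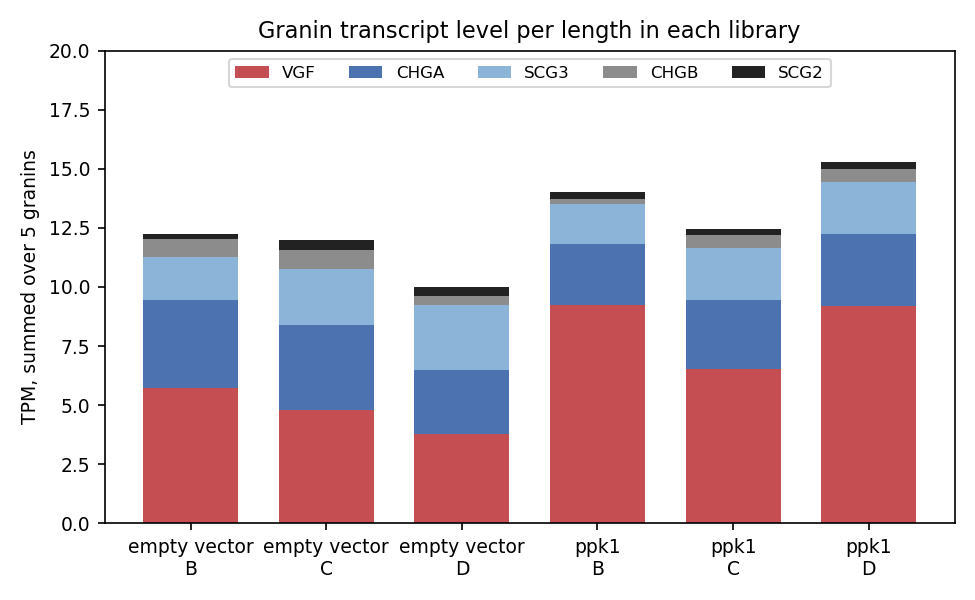
TPM of the 5 granin genes stacked for each library, on a linear axis from 0. The VGF segment runs from 3.77 to 5.72 TPM in the empty vector libraries and from 6.51 to 9.23 TPM in the ppk1 libraries, and the other segments together stay between 4.78 and 7.22 TPM.

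The largest ratio of a gene did not fall in the same pair throughout. VGF, CHGA, CHGB and PCSK1N each had their highest pair value in D, with log2 changes of 1.33, 0.22, 0.37 and 0.13. SCG2 and SCG5 had theirs in B, at 0.38 and 0.06, and SCG3 and REST in C, at 0.08 and 0.09. CHGA, CHGB and PCSK1N also had their lowest value in pair B.

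The genes whose log2 CPM most resembled VGF's over the 6 libraries, among 15100 genes with a mean of at least 50 normalised counts, were DERL3 (Pearson's r 0.99), CD276 (0.99), SCHIP1 (0.98), NRARP (0.98), AK4 (0.98) and C1orf61 (0.98). DERL3 acts in the removal of misfolded proteins from the endoplasmic reticulum, and NRARP is a feedback regulator of Notch signalling. Their log2 fold changes ran from 0.13 to 0.28, far below that of VGF, and DERL3 was the only one of the 6 past the adjusted threshold. DERL3's call was lost without any 1 of the replicates, with values of 0.28, 0.34 and 0.22 without B, C and D. With 6 libraries, 206 genes had an r above 0.9, so the likeness describes the order of the libraries and little else. For REST the nearest were CMBL (0.98), TRIM52-AS1 (0.97), SERAC1 (0.96), NRG2 (0.95), HEY2 (0.95) and MPPED2 (0.92), none of them past the threshold.

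None of 5 protein-coding neighbours of VGF on chromosome 7 was past the threshold on the higher side. TRIM56, AP1S1 and PLOD3 had log2 fold changes of 0.07, 0.06 and 0.05, each smaller than its SE. MOGAT3 was under the filter on low counts. NAT16, the nearest gene on the side of the VGF promoter, averaged 0.55 ± 0.16 CPM in the controls and fell to 0.27 ± 0.05 (SD, n = 3), with a fitted log2 difference of -1.05 (SE 0.32, adjusted p 0.0254 in edgeR's quasi-likelihood test) at 10 to 34 counts per library. That call was lost without the replicate block (-1.05), without replicate B (-1.02) and without replicate C (-0.81). DESeq2 gave NAT16 no adjusted p (-1.035), and a filter at a mean of at least 50 counts removed it.

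The other genes of peptide secretion were read from lists whose members are not the 10 genes above. In the peptide processing list, 0 of 13 tested genes passed the adjusted threshold in edgeR's quasi-likelihood test, against 9.08% of all tested genes. Of the 13, 1 had an unadjusted p below 0.05, and DESeq2 also called 0. CPE, the carboxypeptidase that trims the basic ends left by the convertases, had 63.7 ± 6.25 and 58.4 ± 3.73 CPM in the control and ppk1 libraries. PAM, which amidates peptide ends, had 68.8 ± 2.01 and 64.9 ± 2.52, and FURIN, the convertase of the constitutive pathway, had 68.1 ± 5.82 and 66.0 ± 0.92 (SD, n = 3). CPD lay nearest the threshold, at a log2 fold change of -0.22 (SE 0.07). It was singled out after its values were seen. The list's median was -0.09.

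In the granule biogenesis and release list, 1 of 23 tested genes passed (4.35%, against 9.08% of all tested genes), and the median was 0.03. SNAP25, a membrane fusion protein of synaptic vesicles and granules, fell from 1.21 ± 0.15 to 0.47 ± 0.14 CPM (SD, n = 3). Its libraries had 1.08, 1.17 and 1.37 CPM with empty vector and 0.359, 0.626 and 0.431 with ppk1 (B, C, D), with no overlap. The log2 fold change was -1.36 (SE 0.24, adjusted p 6.85e-05 in edgeR's quasi-likelihood test).

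Among precursors of other peptides, 20 of 43 genes were tested and 1 passed (5.0%, against 9.08% of all tested genes). GAL, the precursor of galanin, averaged 48.3 ± 2.96 CPM in the controls and rose to 61.4 ± 3.29 (SD, n = 3), with a fitted log2 difference of 0.35 (SE 0.08, adjusted p 0.00141 in edgeR's quasi-likelihood test). Its ppk1 libraries, at 58.5, 65.0 and 60.6 CPM, all lay above its control libraries, at 44.9, 49.7 and 50.3. Without replicate C the log2 fold change was 0.33 and the call was lost. Of the list, 7 precursors, among them VIP, PENK and CCK, had 0 counts in all 6 libraries.

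**Figure D4:**
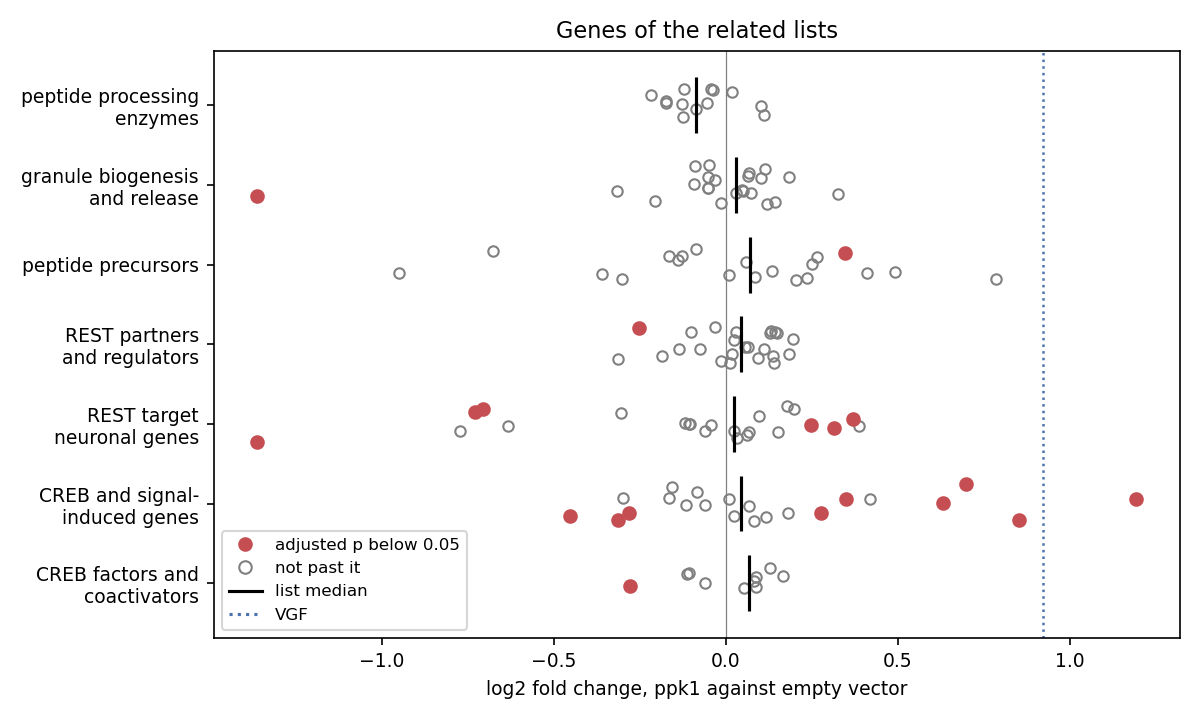
Log2 fold change of each tested gene in the 7 related lists, with filled points past an adjusted p of 0.05, a black line at each list's median and a dotted line at VGF's value of 0.92. EGR1, at 1.19, is the 1 plotted gene beyond VGF on the higher side (genes under the filter on low counts are not plotted), and all list medians lie between -0.09 and 0.07.

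REST acts with the corepressors RCOR1 and SIN3A, which bring in histone deacetylases and demethylases. In the list of its partners and regulators, 1 of 24 tested genes passed (4.17%, against 9.08% of all tested genes), and the median log2 fold change was 0.04. RCOR1 had 54.4 ± 4.69 and 56.5 ± 4.09 CPM, SIN3A 129 ± 4.02 and 131 ± 6.01, and the demethylase KDM1A 220 ± 2.00 and 231 ± 12.5 (control and ppk1, SD, n = 3). PHF21A, a histone reader of the KDM1A complex, fell by 0.25 on the log2 scale (SE 0.07, adjusted p 0.0227 in edgeR's quasi-likelihood test). This call was lost without the replicate block, where the value was -0.25, and also without replicate B (-0.23) or C (-0.25).

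In the list of neuronal genes known as REST targets, 6 of 23 tested genes passed (26.1%, against 9.08% of all tested genes), 3 higher and 3 lower, and the median was 0.02. SNAP25, SYN1 and RUNDC3A fell. SYN1, a synaptic vesicle protein, went from 2.83 ± 0.10 to 1.74 ± 0.29 CPM, at -0.71 (SE 0.16), a call lost with DESeq2. RUNDC3A went from 3.77 ± 0.28 to 2.26 ± 0.41 CPM, at -0.73 (SE 0.15). INA, an intermediate filament of neurons, UNC13A and CPLX1, both of vesicle release, rose by log2 fold changes of 0.25, 0.37 and 0.32. Without the replicate block, and without replicate C, the list had 3 calls, all lower. The 3 rises were also lost with DESeq2 and with upper-quartile scaling. They were lost without replicate D as well, where UNC13A, CPLX1 and INA stood at 0.19, 0.16 and 0.21. Exons of SYN1 and RUNDC3A overlap those of genes on the opposite strand, so their values are uncertain.

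VGF is a textbook target of CREB, and a list of other signal-induced genes, many of them immediate early genes, was read beside it. Of 22 tested genes, 9 passed (40.9%, against 9.08% of all tested genes), 6 higher and 3 lower, and the median was 0.04. The list was written with the rise of EGR1 and others known, so the count is not independent evidence. EGR1, an early growth response factor, had 12.9, 15.1 and 11.2 CPM with empty vector and 30.9, 28.4 and 29.9 with ppk1 (B, C, D), a log2 fold change of 1.19 (SE 0.09, adjusted p 1.40e-14 in edgeR's quasi-likelihood test). EGR3 rose by a log2 fold change of 0.85, FOSB by 0.70 and ARC by 0.63. These 4 genes and VGF all had their largest pair value in D and their smallest in C. In the same list ATF3, which fell, and DUSP1, which was not past the threshold, had this order too. So did FOS and JUNB, both past the threshold on the higher side, IER2, which was not past it, and NPAS4, described below. How many of all genes have it was not counted, so nothing is read from it. The values of VGF were 0.80, 0.64 and 1.33 in B, C and D, and those of ARC were 0.65, 0.17 and 1.10.

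ATF3, a stress-induced factor of the same dimer family, and BTG2, an antiproliferative early gene, fell by 0.31 and 0.28 on the log2 scale. NR4A1, an orphan nuclear receptor induced through CREB, had 25.6 ± 4.21 and 25.7 ± 2.06 CPM, and JUN 297 ± 38.7 and 279 ± 20.9 (SD, n = 3). Without the replicate block the list had 3 calls, EGR1, EGR3 and FOSB. Without replicate C it had 5, all higher, with ATF3 at -0.26 and BTG2 at -0.27. The exons of EGR3 overlap AC055854.1 on the other strand. NPAS4, an activity-induced factor of neurons, was under the filter, with 1, 2 and 0 counts in the control libraries and 13, 8 and 8 with ppk1, which do not overlap. It was singled out after its values were seen.

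The CREB factors and coactivators themselves showed 1 call among 10 genes (10.0%, close to the 9.08% of all tested genes). CREB5 averaged 73.4 ± 2.27 CPM in the controls and fell to 60.6 ± 3.88 (SD, n = 3), with a fitted log2 difference of -0.28 (SE 0.07, adjusted p 0.0111 in edgeR's quasi-likelihood test), a call lost without the replicate block (-0.28) and without replicate C (-0.25). CREB1 had 56.4 ± 3.60 and 52.3 ± 2.32 CPM, and the coactivator CRTC2 54.7 ± 1.82 and 59.7 ± 1.36. Neither passed the threshold.

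The label of the cells was compared with marker genes. All 9 markers of the embryonic kidney line, among them VIM and the neurofilament gene NEFM, had a mean of at least 1 CPM, with summed levels of 948 to 1064 CPM in the control libraries and 914 to 953 with ppk1. Of the 9, 2 passed the threshold (22.2%, against 9.08% of all tested genes). KRT18 rose (log2 fold change 0.28) and NEFL fell (-0.29), and both calls were lost without replicate C and without the replicate block. Of 11 neuroendocrine markers, 5 had a mean of at least 1 CPM (INSM1, NCAM1, SYP, GFI1 and NKX2-2), while PHOX2A and DBH had 0 counts in every library. Their sums were 91.0 to 100.4 CPM in the controls and 89.2 to 98.7 with ppk1, and 1 of the 5 tested passed the threshold. This was NCAM1, which fell by 0.38 on the log2 scale, a call lost without replicate C. The others had 0.30 (NKX2-2), 0.13 (INSM1), 0.09 (SYP) and -0.11 (GFI1). Of 9 markers of blood, stromal, endothelial and liver cells, 1 (COL1A1) reached 1 CPM, and their sums, mostly COL1A1 (log2 fold change 0.08), were 18.5 to 23.1 and 21.1 to 21.6 CPM. Of the 4 tested, ALB fell from 0.63 ± 0.18 to 0.24 ± 0.03 CPM (SD, n = 3), a call DESeq2 did not make, and LUM, at 0.87 ± 0.19 and 0.57 ± 0.13 CPM, did not pass the threshold. The part of these markers in the results was not tested. The libraries held 40851783 to 67122986 counts, with more counts in ppk1 than in its matched control each time. VGF's log2 fold change was 0.95 after thinning all libraries to equal depth. In bulk RNA, more cells expressing a gene and more RNA per cell cannot be told apart.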

How the data were processed

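The authors deposited 1 table of raw counts per Ensembl gene. The submitters' processing notes name bcl2fastq 2.20, Trimmomatic, STAR, HTSeq, edgeR, DESeq, Cufflinks and Cuffdiff, with no role or order. The genome build, annotation release and strand setting are not given in the sources used here. All 6 columns matched a sample by title.

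Counts were tested with edgeR 4.0.16 in R 4.3.3 (filterByExpr with a minimum count of 10, TMM scaling, glmQLFit and glmQLFTest, Benjamini-Hochberg adjustment over 19574 genes, threshold 0.05), with the replicate letter as a block because the series' design text calls the libraries of a letter matched. Deviations of same-letter libraries correlated at 0.109 (B), 0.135 (C) and 0.0476 (D) across genes. Labels do not say how the replicates were grown apart, so p-values concern these samples only. A gene's own spread had 2 residual degrees of freedom, against 47.5 lent by the fit over all genes. The p-values and SEs thus rest mostly on spread shared across genes. They do not give the spread of a gene's own pairs. Each SE was derived from the fold change and its F statistic (size on the log2 scale over root F). CPM are counts per TMM-scaled library size. A prior count of 2 was added for log2 CPM. TPM used union exon lengths of GENCODE release 29, which held 98.96% of the identifiers. Pair ratios have exact (Clopper-Pearson) 95% intervals. The fit was tested on simulated data.

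The members and lists were chosen with earlier results of these data known, and the promoter motifs with the sequences in view. The text names all 10 members, up to 6 called genes of each list by smallest p, the 6 genes most correlated with VGF and with REST, and the nearest neighbours of VGF, 3 on each side, of which 1 is not reported here. Other genes named in the lists were chosen for their role after the values were computed. Alternatives were no block, DESeq2 1.42.0, RLE and upper-quartile scaling, other filters, each replicate left out, GC and length offsets, and equal depth.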

Additional observations from a re-analysis of the deposited data

How the results depend on the processing

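The log2 fold change of VGF, given as a description, was positive in the 11 other fits of these libraries. Its lowest value was 0.72, when replicate D was dropped, and its highest 1.05, when C was dropped. It was 0.92 without the replicate block. The 7 other tested members moved by less than the SD of their 3 pair changes, except PCSK1N with GC and length offsets, at -0.01. CHGB was at -0.98 without replicate D, the 1 case in these fits of a member besides VGF past the adjusted threshold. As in the main fit, nothing is read from that call. A mean of at least 50 counts removed CHGB, SCG2 and SCG5. No scaling moved the median of all genes by as much as 0.1.

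The number of called genes was 1777 (791 higher, 986 lower). It was 470 without the replicate block (89 and 381), 755 with DESeq2 (324 and 431) and 2976 with GC and length offsets (1574 higher). Upper-quartile scaling called 422 genes higher. Across the fits without 1 replicate pair, the calls ran from 406 to 2435, the higher calls from 82 to 1263 and the lower calls from 324 to 1172, lowest without C.

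List calls moved by 1 to 6 genes. Peptide processing enzymes had 1 call in place of 0 with RLE scaling, upper-quartile scaling or a mean of at least 50 counts, and 0 to 2 without 1 replicate. Granule genes had 0 in place of 1 at a mean of at least 50 counts, because SNAP25 was then not tested, and 1 to 2 without 1 replicate. Peptide precursors had 2 in place of 1 with no filter or with GC and length offsets, and 0 to 2 without 1 replicate. REST partners had 0 in place of 1 without the block, 4 with GC and length offsets, and 0 to 3 without 1 replicate. REST targets had 3 in place of 6 without the block or with upper-quartile scaling, 2 with DESeq2, and 3 to 7 without 1 replicate. CREB and signal-induced genes had 3 in place of 9 without the block and 5 to 7 without 1 replicate, while the CREB factors had 0 in place of 1 without the block and 0 to 1 without 1 replicate. Apart from SNAP25, the cause was not tested. Depth limits PCSK1, PCSK2 and SCG2, with at most 14 counts in any library.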
